A study of Arabidopsis thaliana with 8 samples.

Results

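Transcript levels of 10 genes of jasmonate synthesis were examined in young inflorescences of Arabidopsis thaliana, in wild type and in a mutant of LSH1, LSH3 and LSH4. The genes were chosen by their AGI codes as encoding the plastid enzymes that turn linolenic acid into 12-oxophytodienoic acid (OPDA) and the peroxisomal enzyme that reduces it. They are 4 lipoxygenase genes, LOX2 (AT3G45140), LOX3 (AT1G17420), LOX4 (AT1G72520) and LOX6 (AT1G67560), the allene oxide synthase gene AOS (AT5G42650), 4 allene oxide cyclase genes, AOC1 (AT3G25760), AOC2 (AT3G25770), AOC3 (AT3G25780) and AOC4 (AT1G13280), and the OPDA reductase gene OPR3 (AT2G06050). All 10 were among the 22281 genes of the expression table, and all 10 had a mean of 1 FPKM or more and were tested with 17706 genes in all. AOC2, at a mean of 1.08 FPKM, lay just above that minimum and passed it through mutant replicate 8.

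Jasmonates are lipid-derived hormones made after wounding and touch and during flower development. In plastids a 13-lipoxygenase oxygenates linolenic acid, allene oxide synthase and an allene oxide cyclase convert the product to OPDA, and in peroxisomes OPR3 and beta-oxidation complete the synthesis of jasmonic acid, which JAR1 joins to isoleucine. In Arabidopsis flowers the hormone is needed for stamen filament growth, anther opening and pollen maturation, and opr3 and aos mutants are male sterile.

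Poly-A RNA was sequenced in 8 libraries from shoot tips carrying inflorescence meristems, floral meristems and flowers no older than stage 8, all from Col-0 plants grown in 16 h days at 20 to 22 °C. Wild type (replicates 1 to 4) carried no named mutation, and the mutant (replicates 5 to 8) carried lsh1, lsh3 and lsh4 together; the labels do not give the alleles or say whether replicates came from separate plants, and the p-values therefore speak only of the spread among these libraries, part of which may be technical. Of the mutated genes, LSH4 fell (log2 fold change -1.85, limma adjusted p = 0.00773), as did LSH1 (-1.53, adjusted p = 0.0423), whereas LSH3, at -0.30, missed the threshold (adjusted p = 0.607). Both calls were lost without wild type replicate 2. FPKM is a fragment count scaled to gene length and library size, and the read totals behind it are unknown.

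The labelled tissue was checked against its markers. STM, which maintains the shoot meristem, and the floral genes LFY, AP1, AP3 and PI were present in every library, STM at 62.1 to 98.6 FPKM. The stem cell genes WUS and CLV3 had low levels (means of 0.90 and 0.75 FPKM over the 8 libraries). Of the markers of later anthers, AMS was at most 0.06 and A9 at most 0.50 FPKM, with both at 0 in every mutant library, while LAP6 and TKPR1 were at 8.06 to 11.8 FPKM. Genes of the late stamen programme were also near absent, with DAD1, which encodes the anther phospholipase that supplies jasmonate precursor, listed at 0 in 7 libraries and MYB21, a jasmonate-responsive stamen factor gene, at most 0.30 FPKM.

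The libraries were not alike in the level of early stress genes or in composition. Over 10 tested genes known to respond early to touch, wounding and stress, the mean log2(FPKM + 1) was 6.03, 4.34, 3.88 and 2.53 in wild type replicates 1 to 4, and the 4 mutant libraries lay between 2.09 and 2.81. For 17.2% of all tested genes the highest of the 8 libraries was wild type replicate 1, and for 22.0% it was mutant replicate 8. Fold changes without 1 of these libraries follow beside the values they moved most.

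The 4 AOC genes are close copies, and AOC1, AOC2 and AOC3 lie in a row on chromosome 3, so it was asked whether their reads could be mixed up. In the RefSeq annotation of TAIR10.1, AOC1 spans chr3:9403779-9405338, AOC2 chr3:9406669-9408071 and AOC3 chr3:9409160-9411090, all on the plus strand, with 1330 and 1088 bases between neighbours, and AOC4 lies apart at chr1:4547388-4548894. The coding sequences of AOC1 and AOC2 were 90.3% identical, against 81.6% for AOC1 and AOC3 and 71.1% for AOC1 and AOC4. The stretch below, 90 coding bases of the second coding exon (plus strand, TAIR10.1, chr3:9404663-9404752 for AOC1, chr3:9407397-9407486 for AOC2, chr3:9409967-9410056 for AOC3 and chr1:4548110-4548199 for AOC4), is shown to let the copies be compared base by base. Capitals mark the bases that differ from AOC2, 6 in AOC1, 7 in AOC3 and 14 in AOC4.
AOC1: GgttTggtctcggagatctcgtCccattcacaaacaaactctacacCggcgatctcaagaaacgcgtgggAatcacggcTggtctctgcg
AOC2: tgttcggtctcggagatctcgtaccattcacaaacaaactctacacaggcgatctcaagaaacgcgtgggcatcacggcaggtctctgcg
AOC3: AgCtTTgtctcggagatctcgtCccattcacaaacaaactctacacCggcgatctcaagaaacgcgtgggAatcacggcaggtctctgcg
AOC4: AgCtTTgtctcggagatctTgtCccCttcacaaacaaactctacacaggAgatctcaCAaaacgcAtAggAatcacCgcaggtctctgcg

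The longest identical run between the annotated transcripts of AOC1 and AOC2 was 47 bases, and that between AOC1 and AOC3 was 73. Of the 50-base windows of AOC1, 2.1% occurred unchanged in AOC3 and 0 in AOC2. LOX3 and LOX4 were 80.1% identical over their coding sequence with a longest shared run of 24 bases, and LOX2 and LOX6 were at most 56.7% identical to the other lipoxygenase genes. No annotated gene overlapped any of the 10. The way the authors assigned reads that fit several copies is not given in the sources used here, so the single values of AOC1, AOC2 and AOC3 carry that uncertainty.

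The promoters that follow are those of the genes with the widest swings between libraries, 250 bases before to 50 bases after the annotated gene start, and are shown because LOX3 with LOX4, and AOC1 with AOC2, are paralogues whose levels were high in the same library. Each is written 5′ to 3′ on the gene's own strand, which is plus for all 5 (TAIR10.1, chr3:16524995-16525294 for LOX2, chr1:5977073-5977372 for LOX3, chr1:27308263-27308562 for LOX4, chr3:9403529-9403828 for AOC1 and chr3:9406419-9406718 for AOC2). Capitals mark 4 motifs searched on both strands: the G-box CACGTG and the related box AACGTG, both known as sites of MYC2, GGACCA, known as a site of the leaf growth factor TCP4, and CGCGTT, known as a rapid stress response element.
LOX2: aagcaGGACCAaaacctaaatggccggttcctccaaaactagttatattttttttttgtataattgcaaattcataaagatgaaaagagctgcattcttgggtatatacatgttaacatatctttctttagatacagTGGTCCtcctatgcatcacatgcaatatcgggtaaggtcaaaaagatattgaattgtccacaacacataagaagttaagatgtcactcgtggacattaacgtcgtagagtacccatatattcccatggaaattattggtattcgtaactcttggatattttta
LOX3: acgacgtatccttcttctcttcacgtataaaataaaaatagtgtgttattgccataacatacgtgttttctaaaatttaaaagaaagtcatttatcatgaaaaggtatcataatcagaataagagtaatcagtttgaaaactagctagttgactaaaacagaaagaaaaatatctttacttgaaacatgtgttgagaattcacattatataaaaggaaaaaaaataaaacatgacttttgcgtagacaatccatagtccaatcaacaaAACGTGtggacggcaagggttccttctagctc
LOX4: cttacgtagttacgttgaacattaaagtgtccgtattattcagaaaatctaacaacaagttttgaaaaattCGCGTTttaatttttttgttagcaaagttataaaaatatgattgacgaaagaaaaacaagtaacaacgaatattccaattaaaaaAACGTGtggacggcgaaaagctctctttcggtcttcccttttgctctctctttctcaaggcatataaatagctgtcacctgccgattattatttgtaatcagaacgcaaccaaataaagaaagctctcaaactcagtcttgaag
AOC1: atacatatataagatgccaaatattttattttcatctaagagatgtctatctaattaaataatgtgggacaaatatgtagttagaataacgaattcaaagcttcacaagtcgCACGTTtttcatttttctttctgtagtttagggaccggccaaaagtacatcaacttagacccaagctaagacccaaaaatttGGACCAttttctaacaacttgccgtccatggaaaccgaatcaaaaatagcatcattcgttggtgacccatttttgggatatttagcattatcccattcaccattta
AOC2: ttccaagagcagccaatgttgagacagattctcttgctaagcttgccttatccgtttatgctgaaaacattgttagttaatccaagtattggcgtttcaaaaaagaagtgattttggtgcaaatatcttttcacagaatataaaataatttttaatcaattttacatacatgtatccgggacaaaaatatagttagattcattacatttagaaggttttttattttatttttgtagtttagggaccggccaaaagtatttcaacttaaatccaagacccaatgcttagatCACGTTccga

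LOX2, which is known as a target of TCP4, held GGACCA at 245 and at 113 bases before its start, and AOC1 held it at 56 bases before. The motif occurred in 6.99% of the 27443 promoters of protein-coding genes cut in the same way. AACGTG was found in LOX3, LOX4, AOC1 and AOC2 (8.95% of all promoters), CACGTG in AOS only among the 10 (7.68%), and CGCGTT in LOX4 only (3.4%). LOX3 and LOX4 shared the run aaaacgtgtggacggc, which includes their AACGTG box and begins 16 bases after the start of LOX3 and 96 bases before that of LOX4, and AOC1 and AOC2 shared tgtagtttagggaccggccaaaagta. Each of these runs occurred in no promoter outside its pair. None of the motifs was found in the same window of LOX6, AOC3, AOC4 or OPR3, and a match is a stretch of letters, not evidence of binding.

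By level, AOC4 (mean 96.3 FPKM over the 8 libraries), LOX2 (91.8) and OPR3 (54.1) were the most abundant of the 10, followed by AOC3 (28.1), LOX6 (25.2), AOS (18.8), LOX3 (6.78), LOX4 (3.45), AOC1 (3.12) and AOC2 (1.08). LOX2 ranged from 9.69 to 340.1 FPKM and AOC3 from 10.4 to 80.9, and every pair of neighbours in this order overlapped in range. The genes differed in how far they moved between libraries. The highest library exceeded the lowest 1.45-fold for AOC4, 1.46-fold for LOX6 and 2.24-fold for OPR3, but 35.1-fold for LOX2, 26.6-fold for LOX4 and 51.4-fold for AOC2.

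**Figure D1:**
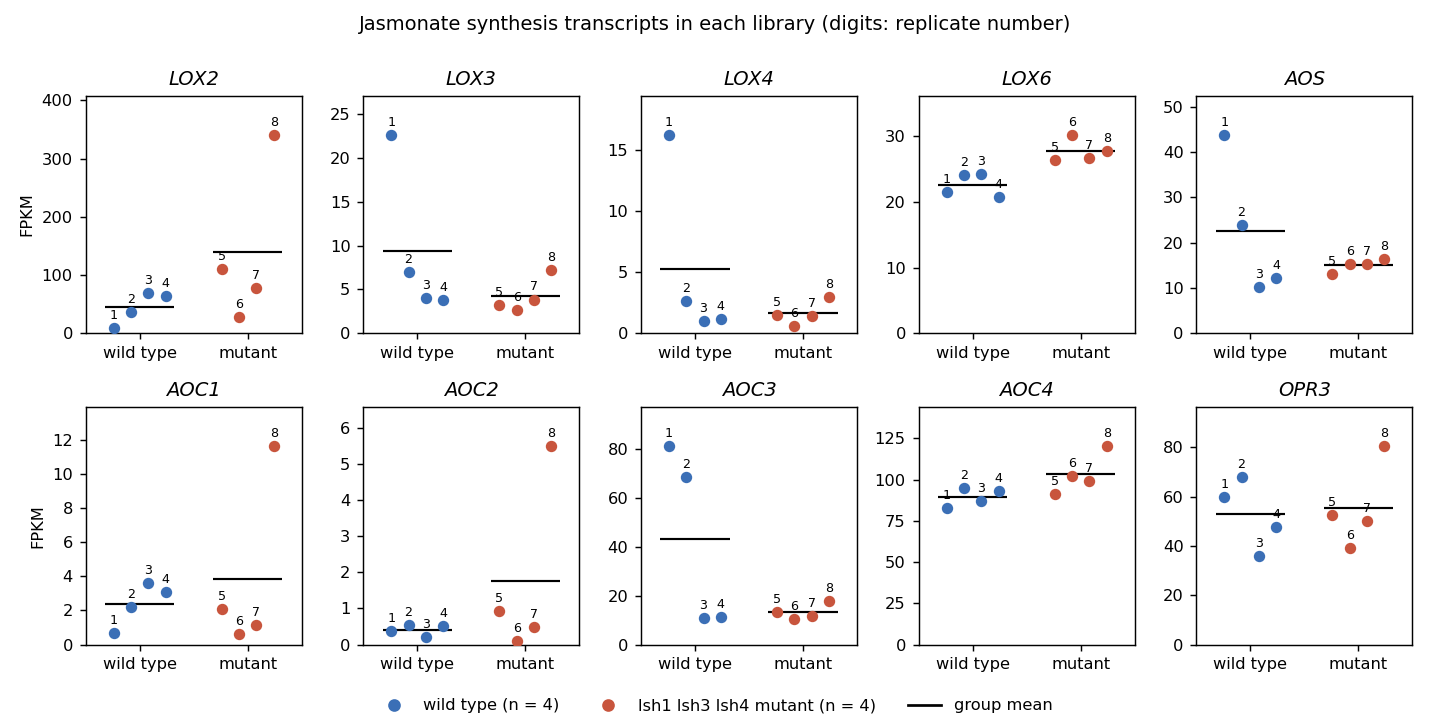
FPKM of each of the 10 genes in wild type (blue) and mutant (red) libraries, with the replicate number beside each point and a line at the group mean of 4 libraries; every vertical axis starts at 0. LOX6 separates the genotypes. LOX3, LOX4, AOS and AOC3 are highest in wild type replicate 1 (17.2% of all tested genes are). LOX2, AOC1, AOC2, AOC4 and OPR3, 5 of the 10, are highest in mutant replicate 8 (22.0% of all tested genes are).

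None of the 10 genes passed the test over all genes (limma on the log2 scale with 1 added to each FPKM, adjusted after Benjamini and Hochberg, threshold 0.05), where 0.136% of genes rose and 0.0508% fell. At an unadjusted p under 0.05 LOX6 alone was higher and none was lower, against 6.91% and 5.62% of all tested genes. LOX6 was also the 1 gene in which all mutant libraries lay above all wild-type libraries (4.15% of all tested genes), and none had all mutant libraries below (3.74%). The authors' deposited table, which comes from their own analysis, lists LOX6 as higher and none of the 10 as lower, where 2.41% of the genes tested there are listed as higher and 1.68% as lower. Of the 10 log2 fold changes 6 were positive, against 47.6% of all tested genes, and their median was 0.08, against -0.01 for all tested genes. AOC2 is among the 6 but was tested only through its mutant level, so its sign is a description. Without mutant replicate 8 the median of the 10 was -0.25.

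LOX6 encodes the lipoxygenase that is known for early jasmonate production in Arabidopsis roots and around the vasculature. It had 21.5, 24.1, 24.2 and 20.7 FPKM in wild type replicates 1 to 4 and 26.3, 30.2, 26.6 and 27.7 FPKM in mutant replicates 5 to 8. The genotypes did not overlap, and the gap between the highest wild-type and the lowest mutant library was smaller than the range within either group. The means were 22.6 ± 1.80 and 27.7 ± 1.74 FPKM (SD, n = 4 per genotype), and the log2 fold change was 0.28 (SE 0.08, 95% interval 0.10 to 0.46, limma adjusted p = 0.199, unadjusted p = 0.00622). The authors' deposited table gives LOX6 a log2 fold change of 0.29 with an adjusted p-value of 0.0433. Among the fits that left out 1 library its value ran from 0.24 to 0.31 and its adjusted p from 0.157 to 0.425.

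LOX2 encodes the lipoxygenase that makes most of the jasmonate of wounded leaves, and it showed the widest range of the lipoxygenase genes. It had 9.69, 36.4, 68.4 and 64.8 FPKM in wild type replicates 1 to 4 and 110.3, 27.99, 77.2 and 340.1 FPKM in mutant replicates 5 to 8. The groups overlapped, since mutant replicate 6 lay below 3 of the wild-type libraries. The means were 44.8 ± 27.4 and 138.9 ± 138.3 FPKM, a log2 fold change of 1.39 (SE 0.80, 95% interval -0.44 to 3.22, limma adjusted p = 0.508). It was 0.78 without mutant replicate 8 and 0.80 without wild type replicate 1.

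LOX3 and LOX4 encode lipoxygenases with overlapping roles in stamens, the double mutant being male sterile, and both were highest in wild type replicate 1. LOX3 had 22.6, 6.99, 4.005 and 3.84 FPKM in wild type replicates 1 to 4 and 3.19, 2.60, 3.86 and 7.18 FPKM in mutant replicates 5 to 8. LOX4 had 16.2, 2.68, 0.978 and 1.18 FPKM in the wild type, and 0.611 to 2.99 FPKM in the mutant, with mutant replicate 8 again the highest of the mutants. For each gene the other 3 wild-type libraries lay within the mutant range. The log2 fold changes were -0.73 for LOX3 (95% interval -1.87 to 0.40, limma adjusted p = 0.571) and -0.70 for LOX4 (-2.18 to 0.78, adjusted p = 0.687), and without wild type replicate 1 they were -0.23 and -0.0039.

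AOS encodes the cytochrome P450 that commits the lipoxygenase product to the jasmonate branch, and it is a single gene. It had 43.7, 23.9, 10.3 and 12.3 FPKM in wild type replicates 1 to 4 and 13.1, 15.3, 15.4 and 16.3 FPKM in mutant replicates 5 to 8. Wild type replicates 1 and 2 lay above every mutant library, and replicates 3 and 4 lay below every mutant library. The log2 fold change was -0.34 (95% interval -1.21 to 0.54, limma adjusted p = 0.747), and it turned to 0.04 without wild type replicate 1.

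**Figure D2:**
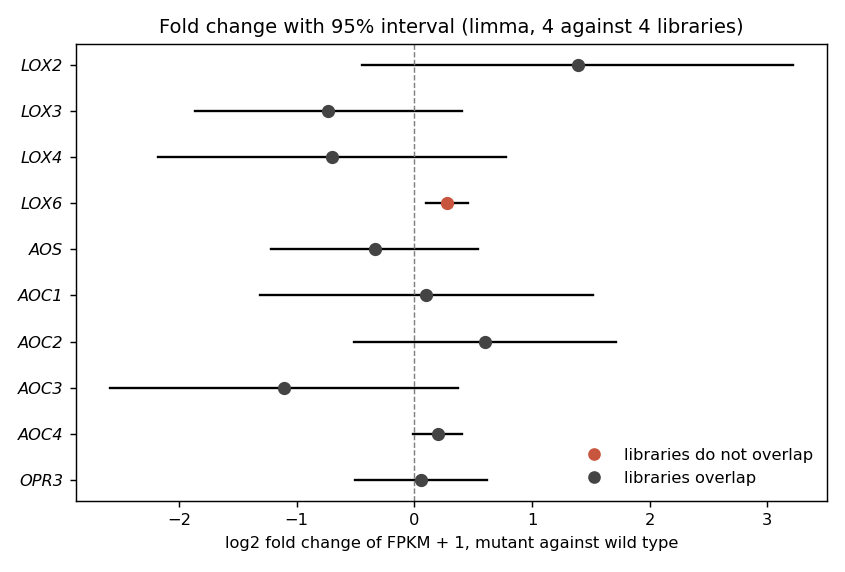
Log2 fold change of FPKM + 1, mutant against wild type, for the 10 genes, with the 95% interval from limma (4 against 4 libraries); red marks the gene whose libraries do not overlap. The interval of LOX6 runs from 0.10 to 0.46, and the other 9 intervals include 0.

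AOC4 and OPR3 were the steadiest of the abundant genes. AOC4 had 82.8, 95.1, 87.0 and 93.0 FPKM in wild type replicates 1 to 4 and 91.5, 101.9, 99.2 and 120.15 FPKM in mutant replicates 5 to 8. The groups overlapped through mutant replicate 5, and the means were 89.5 ± 5.63 and 103.2 ± 12.1 FPKM (log2 fold change 0.20, 95% interval -0.0096 to 0.41, limma adjusted p = 0.418), with 0.12 left without mutant replicate 8. OPR3, the reductase gene on which male fertility depends, had 59.8, 67.8, 35.9 and 47.5 FPKM in the wild type, and 52.4, 39.0, 49.97 and 80.3 FPKM in the mutant. Its groups overlapped throughout (log2 fold change 0.06, 95% interval -0.50 to 0.62, adjusted p = 0.942), and the sign turned without wild type replicate 3 (-0.11) or mutant replicate 8 (-0.13).

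AOC3 had the widest spread among wild-type libraries of the cyclase genes. It had 80.9 and 68.4 FPKM in wild type replicates 1 and 2 but 11.02 and 11.3 FPKM in replicates 3 and 4, and 13.5, 10.4, 11.5 and 17.9 FPKM in mutant replicates 5 to 8. Only wild type replicates 1 and 2 stood apart, and the other 6 libraries lay between 10.4 and 17.9 FPKM. The log2 fold change was -1.11 (SE 0.65, 95% interval -2.59 to 0.37, limma adjusted p = 0.512). Leaving out wild type replicate 1 gave -0.63, and leaving out replicate 2 gave -0.71. With wild type replicates 1 and 2 both left out it was 0.21, and in the same fit LOX3 had 0.0076, LOX4 0.27 and AOS 0.39, so that all 4 turned sign.

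AOC1 and AOC2, the closest pair of copies, were scarce except in mutant replicate 8. AOC1 had 0.661, 2.21, 3.60 and 3.07 FPKM in wild type replicates 1 to 4 and 2.08, 0.596, 1.13 and 11.6 FPKM in mutant replicates 5 to 8. AOC2 had 0.22 to 0.53 FPKM in the wild type, and 0.917, 0.107, 0.483 and 5.48 FPKM in the mutant. In both genes mutant replicate 8 was the highest library and mutant replicate 6 the lowest. AOC1 had a log2 fold change of 0.10 (95% interval -1.31 to 1.52, limma adjusted p = 0.964), which turned to -0.53 without mutant replicate 8 and to -0.21 without wild type replicate 1. AOC2 had 0.60 (95% interval -0.51 to 1.72, adjusted p = 0.642), which was 0.07 without mutant replicate 8. AOC2 reached the minimum mean only through the mutant (1.75 FPKM on average, against 0.41 in wild type). Its value is therefore a description. Summed, a level that depends less on how reads were divided within the pair, AOC1 and AOC2 had 1.02 to 3.82 FPKM in the wild type, and 3.001, 0.703, 1.62 and 17.1 FPKM in the mutant. The sum does not remove the uncertainty from reads that fit AOC3, which shared a run of 73 bases with AOC1 and 50 with AOC2.

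The shares of the copies within each family differed between libraries of the same genotype. LOX2 was the largest of the lipoxygenase genes in 6 libraries, LOX3 in wild type replicate 1 (32.3%) and LOX6 in mutant replicate 6 (49.1%), while AOC4 was the largest of the cyclase genes in all 8. LOX2 made up 13.8% of the summed lipoxygenase FPKM in wild type replicate 1, 51.9% to 71.6% in the other wild-type libraries and 45.6% to 89.98% in the mutants. LOX3 and LOX4 together exceeded 10 FPKM in wild type replicate 1 (38.8 FPKM) and mutant replicate 8 (10.2 FPKM). AOC4 made up 50.3% and 57.2% of the cyclase FPKM in wild type replicates 1 and 2 and 77.4% to 90.2% in the other 6 libraries, with AOC3 making up 49.1% and 41.1% in those first 2. The summed cyclase level was 101.8 to 166.3 FPKM in the wild type, and 108.0 to 155.2 in the mutant.

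**Figure D3:**
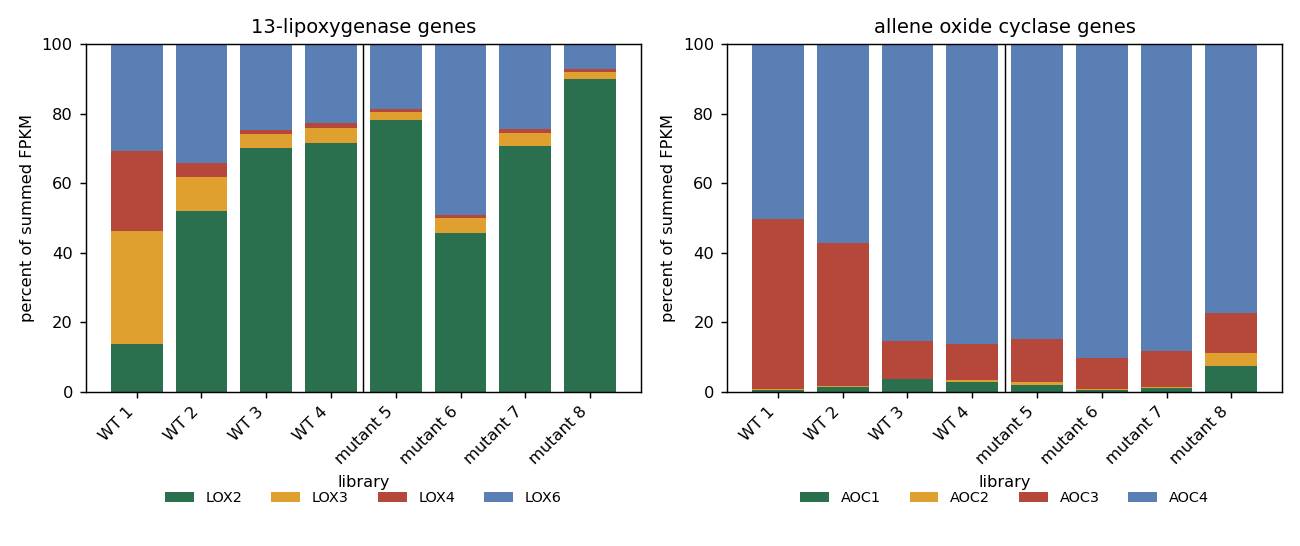
Share of each gene in the summed FPKM of the 4 lipoxygenase genes (left) and of the 4 allene oxide cyclase genes (right), in percent, per library. LOX3, LOX4 and AOC3 take their largest shares in wild type replicate 1, and LOX2 takes 89.98% of the lipoxygenase sum in mutant replicate 8.

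The genes high in wild type replicate 1 were set beside the early stress markers. LOX3, LOX4, AOS and AOC3 were 4 of the 10 genes and had their highest value there (17.2% of all tested genes did), and all 10 of the tested early stress markers had theirs in the same library. In that library the markers summed to 1443 FPKM, against 644, 295 and 126 FPKM in wild type replicates 2 to 4 and 84.0 to 198.8 FPKM in the mutants. Among them ZAT12, a stress-induced zinc finger gene, had 83.0, 22.1, 31.5 and 6.99 FPKM in the wild type, and 2.43 to 6.27 FPKM in the mutants, a log2 fold change of -2.68 by limma (adjusted p = 0.152), and the cold factor gene CBF2 had -1.87 (adjusted p = 0.151). None of the 10 markers passed, all 10 had negative values with a median of -1.64, and in 4 all mutant libraries lay below all wild-type libraries (3.74% of all tested genes). The authors' deposited table lists 6 of the 12 markers as lower (1.68% of the genes tested there), among them ZAT12 (-3.40, adjusted p = 0.000746) and CBF2 (-4.04, adjusted p = 1.12e-06). Without wild type replicate 1 ZAT12 had -2.12, CBF2 -1.53 and the 10 markers a median of -1.02. CBF2, WRKY40 and RRTF1, 3 of the 10, reached the minimum mean of 1 FPKM through wild type alone. The markers were not alike in shape among wild-type libraries. In wild type replicate 3 CBF2 was at 4.397 FPKM, against 0.80 in replicate 4, and WRKY33 at 6.27, against 3.61. TCH3 had 703.6, 401.7, 47.3 and 22.6 FPKM in wild type replicates 1 to 4. LOX3, LOX4, AOS and AOC3 were in replicate 3 near their replicate 4 values. The part of handling or stress in these values was not tested.

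Some genes of other steps, picked after their values were seen, were also highest in wild type replicate 1. Highest there were 4 of 8 tested genes of linolenate supply and release and 2 of 5 side branch genes. So were 1 of 8 OPDA transport and beta-oxidation genes, 2 of 7 conjugation and turnover genes and 3 of 8 perception and MYC genes. The counts were 2 of 12 JAZ genes, 0 of 9 output genes and 1 of 9 regulators, against 17.2% of all tested genes. OPCL1, which activates the OPDA-derived acid for beta-oxidation, had 90.8, 37.8, 13.8 and 15.0 FPKM in wild type replicates 1 to 4, and its mutant range was 15.3 to 23.9. OPR1, a reductase gene related to OPR3, had 70.8, 47.2, 17.5 and 13.002 FPKM in the wild type, and 12.4 to 25.8 in the mutant. The lipase gene PLA-Ibeta2 had 7.78, 1.98, 0.27 and 0.13 FPKM in the wild type, and 0 to 0.43 in the mutant. It reached the minimum mean of 1 FPKM only through wild type. MYC2, the main transcription factor of jasmonate responses, had 95.55 FPKM in wild type replicate 1 and 21.8 to 40.05 FPKM in the other 7 libraries. None of these 4 passed the test (limma adjusted p of 0.496 to 0.835). Without wild type replicate 1 the log2 fold change of OPCL1 went from -0.65 to -0.12, that of OPR1 from -0.79 to -0.38, that of PLA-Ibeta2 from -1.06 to -0.45 and that of MYC2 from -0.25 to 0.20. ORA47, an early activator of jasmonate synthesis genes, had 37.6, 7.18, 12.8 and 5.21 FPKM in the wild type, and 2.59 to 4.56 in the mutant, with no overlap. Its log2 fold change was -1.54 (limma adjusted p = 0.269), and the authors' deposited table lists it as lower (-2.16, adjusted p = 0.00284). It was -1.01 without wild type replicate 1.

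**Figure D4:**
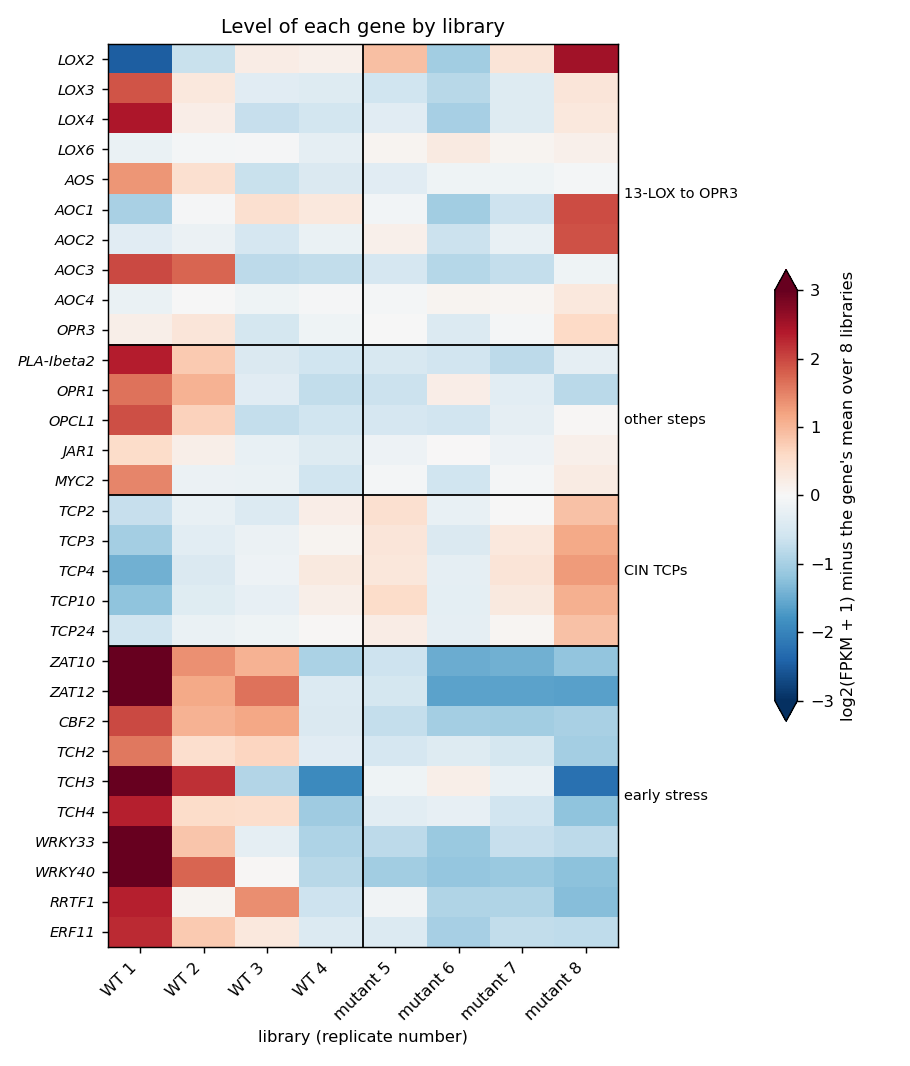
Log2(FPKM + 1) of each gene in each library minus the gene's mean over the 8 libraries, for the 10 synthesis genes, 5 other jasmonate genes picked after their values were seen, 5 CIN-type TCP genes and the 10 tested early stress genes; colours stop at 3 log2 units either way. Wild type replicate 1 is red for LOX3, LOX4, AOS, AOC3 and the stress genes and blue for LOX2 and the TCP genes.

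The extremes of LOX2 were set beside those of the CIN-type TCP genes, which encode growth regulators of leaves and petals. TCP4 had 1.47, 3.99, 5.08 and 7.18 FPKM in wild type replicates 1 to 4 and 7.48, 4.55, 7.86 and 15.4 FPKM in mutant replicates 5 to 8. As for LOX2, its lowest library was wild type replicate 1 and its highest mutant replicate 8, and mutant replicate 6 was the lowest mutant. Of all tested genes 15.9% were lowest in wild type replicate 1 and 22.0% were highest in mutant replicate 8. The floral genes AP3, PI and AG were also highest in mutant replicate 8. Wild type replicate 1 was their lowest wild-type library, but mutant replicate 6 was the lowest of all. TCP10 had a log2 fold change of 0.82 (limma adjusted p = 0.376), TCP4 0.87 (0.433), TCP3 0.71 (0.438), TCP2 0.56 (0.427) and TCP24 0.44 (0.478). Of the 9 tested regulators of jasmonate synthesis, the TCP genes included, none passed, and the median was 0.44. Without mutant replicate 8 the TCP values ran from 0.22 (TCP24) to 0.60 (TCP10), and without wild type replicate 1 from 0.32 to 0.55. The mean log2(FPKM + 1) of the green tissue markers was 10.2 in mutant replicate 6, 10.12 in mutant replicate 8 and 9.64 in wild type replicate 1. It was 10.01 in wild type replicate 3 and lowest in wild type replicate 2 (9.23). Of the 20 markers 8 were highest in mutant replicate 8, as LOX2 was. All the rest were highest in mutant replicate 6, where LOX2 had its lowest mutant value (27.99 FPKM). All 20 green tissue markers had positive fold changes (median 0.46) and none passed. The authors' deposited table lists 1 of the 20, LHCB4.2, as higher (0.65, adjusted p = 0.0292), against 2.41% of the genes tested there. The 6 tested meristem and floral markers had negative values (median -0.20, none passed). Their median was -0.43 without wild type replicate 1 and -0.54 without mutant replicate 8. In STM all mutant libraries lay below all wild-type libraries (3.74% of all tested genes). The authors' deposited table lists STM, 1 of the 8 markers, as lower (-0.38, adjusted p = 0.00745), against 1.68% of the genes tested there. The mean log2(FPKM + 1) of the 6 was 4.71, 5.28, 5.07 and 5.84 in wild type replicates 1 to 4. It was 4.198 in mutant replicate 6 and 5.72 in mutant replicate 8. The 6 stem and vascular markers had positive values (median 0.35, none passed). The part of tissue make-up in the values of LOX2 and the other synthesis genes was not tested. In whole tissue, fewer cells of a type and less RNA per cell cannot be told apart.

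The genes nearest to each member in profile were found by the root mean square difference between log2 levels scaled to mean 0 and SD 1 over the 8 libraries, 3 for each of the 10. Nearest to LOX2 were CYP77A6 (0.13), FAO3 (0.13) and GPAT6 (0.14), of which CYP77A6 and GPAT6 act in cutin synthesis in Arabidopsis flowers. CYP77A6 had 5.18, 14.8, 21.7 and 17.3 FPKM in wild type replicates 1 to 4 and 27.5, 10.5, 22.0 and 48.4 FPKM in mutant replicates 5 to 8. The ion channel gene CNGC1 was the nearest gene to both LOX3 (0.14) and LOX4 (0.08), with 44.9 FPKM in wild type replicate 1 and 14.1 to 22.6 in the others. Nearest to AOC3 was AT1G18390 (0.12), and among the 3 nearest to AOS was OPCL1 (0.20), the 1 entry of these 30 that belongs to a jasmonate list. Nearest to LOX6 was VTE5 (0.27), which acts in vitamin E synthesis and is listed, like LOX6, in the authors' deposited table.

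Along the rest of the pathway, values were taken from lists of genes by role. Of 7 tested conjugation and turnover genes none passed over all genes, 5 had positive values, and the median was 0.60. In 4 of the 7 all mutant libraries lay above all wild-type libraries (4.15% of all tested genes), and the authors' deposited table lists the same 4 as higher (2.41% of the genes tested there). JOX2 and JMT reached the minimum mean of 1 FPKM only through the mutant and CYP94C1 only through wild type, so these counts and the median rest partly on the filter. They are IAR3 and ILL6, which encode hydrolases of jasmonate and auxin conjugates, and JOX2 and JOX3, which encode oxidases that inactivate jasmonic acid. ILL6 had 5.67, 7.39, 4.72 and 3.62 FPKM in wild type replicates 1 to 4 and 9.72, 8.03, 10.04 and 15.7 FPKM in mutant replicates 5 to 8 (log2 fold change 0.90, limma adjusted p = 0.176). IAR3 had 23.6 to 31.0 FPKM in the wild type, and 34.6 to 58.8 FPKM in the mutant (0.60, adjusted p = 0.185).

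The JOX2 values were low in wild type. It was at 0.25, 0.14, 0.61 and 0.92 FPKM in wild type replicates 1 to 4 and at 4.72, 1.46, 2.88 and 14.2 FPKM in mutant replicates 5 to 8, without overlap. Its log2 fold change was 1.89 (limma adjusted p = 0.185), and the authors' deposited table gives 3.59 (adjusted p = 5.95e-05). As JOX2 was tested only because of its mutant level (5.81 FPKM on average, against 0.48 in wild type), its difference is a description. It was 1.39 without mutant replicate 8. JAR1, which makes the active conjugate, had a log2 fold change of -0.07 with a 95% interval from -0.52 to 0.37, and 0.10 without wild type replicate 1.

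Of 12 tested JAZ genes, which encode repressors of jasmonate responses, 1 rose over all genes, 11 did not pass, 11 had positive values and the median was 0.57. JAZ9 rose with a log2 fold change of 1.54 (limma adjusted p = 0.0425), a call that was lost in every fit that left out 1 library. In those fits its fold change ran from 1.37 to 1.68. The authors' deposited table lists 4 of the 13 JAZ genes as higher (2.41% of the genes tested there). JAZ9 is among them, with a log2 fold change of 1.53 and an adjusted p-value of 2.37e-09. In 5 of the 12 all mutant libraries lay above all wild-type libraries (4.15% of all tested genes). JAZ13, among the 5, reached the minimum mean only through the mutant (means of 3.01 FPKM there and 0.17 FPKM in wild type).

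No gene of the earlier and later enzymes passed. Of 8 tested genes of linolenate supply and release none passed (median 0.05), with PLA-Igamma1 at -0.21 (limma adjusted p = 0.462) and PLA-Ibeta2 at -1.06 (0.496). PLA-Ibeta2 reached the minimum mean only through wild type (means of 2.54 FPKM there and 0.20 FPKM in the mutant), so its value is a description. Of 8 OPDA transport and beta-oxidation genes none passed (median 0.04), and the thiolase gene KAT2 had 90.9 ± 1.84 FPKM in the wild type, and 90.1 ± 2.64 in the mutant, with ACX5 at 0.28 (adjusted p = 0.398) and the peroxisomal importer gene CTS at 0.13 (0.573). Of 5 side branch genes none passed (median -0.0066), with LOX1, a 9-lipoxygenase gene, at 0.44 (0.434) and the hydroperoxide lyase gene HPL1 at 0.83 (0.5001). HPL1 was lowest in wild type replicate 1 (12.3 FPKM) and highest in mutant replicate 8 (94.35 FPKM), as LOX2 was, and it had 0.52 without the first and 0.46 without the second.

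No tested perception or output gene passed either. Of 8 tested genes of perception and MYC factors none passed (median 0.09), the receptor gene COI1 had 17.5 ± 0.62 FPKM in the wild type, and 19.5 ± 2.53 in the mutant, and MYC4 had 0.26 (limma adjusted p = 0.393) and MYC3 0.29 (0.399). Of 9 tested jasmonate-responsive output genes none passed, 6 had positive and 3 negative values and the median was 0.26. The authors' deposited table lists 1 of the 12 output genes, NAC055, as higher (2.87, adjusted p = 0.0147), against 2.41% of the genes tested there. NAC055 was under the minimum mean here, with 0 to 0.15 FPKM in wild type and 0.39 to 0.59 FPKM in the mutant. The paralogues VSP1 and VSP2, which encode vegetative storage proteins, had values of opposite sign, with VSP2 at 0.94 (adjusted p = 0.332) and VSP1 at -0.55 (0.464). They are close copies that may share reads. VSP2 had 266 to 519 FPKM in the wild type, and 469 to 1435 FPKM in the mutant, and its log2 fold change was 0.64 without mutant replicate 8.

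**Figure D5:**
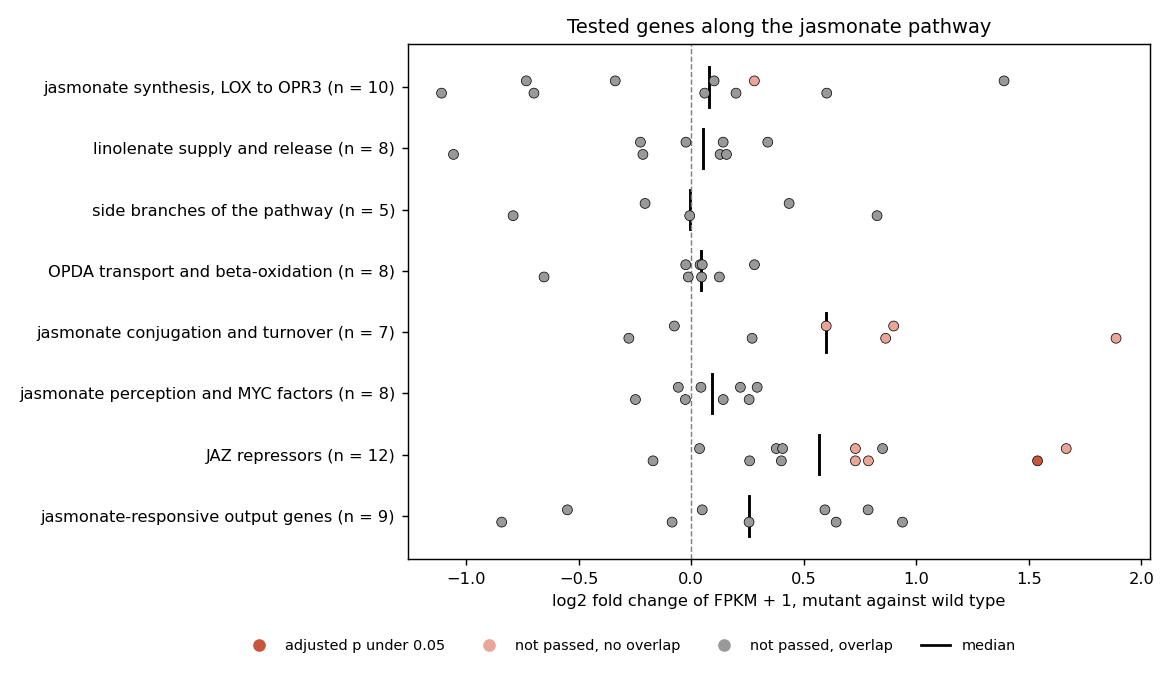
Log2 fold change of FPKM + 1, mutant against wild type, for each tested gene in 8 groups along the jasmonate pathway (n is the number of tested genes, the black line their median). Synthesis genes lie on both sides of 0 with a median of 0.08, while the median is 0.60 for conjugation and turnover genes and 0.57 for JAZ genes.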

How the data were processed

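Poly-A RNA of Arabidopsis thaliana was sequenced in 8 libraries, 4 wild type and 4 lsh1 lsh3 lsh4 mutant, grouped by sample title. The deposited expression table gives FPKM per gene and library. The submitters' processing notes name RSEM, DESeq2 and the genome build TAIR10. The sources used here do not name the aligner, the annotation or any filter. Median-of-ratios factors of the deposited FPKM were 1.00 in every library, so that scaling changes nothing. Steps between low values gave a depth relative to wild type replicate 1 in 2 of 7 libraries (1.22 for mutant replicate 6, 1.36 for mutant replicate 7), so values carry no counting interval. For 822 genes, the authors' deposited table of differential expression holds, per the file headers, the log2 fold change with its raw p-value and its adjusted one, and the ratio of its adjusted to its raw p-value in the first entry corresponds to 20096 tested genes.

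From these, limma 3.58.1 (R 4.3.3; mean-variance trend, 2-sided) was run on log2(FPKM + 1) for the 17706 genes whose FPKM averaged at least 1, with Benjamini-Hochberg adjustment and a threshold of 0.05. Fold changes on this scale understate the change of low genes. The code was tested on simulated data: over 17706 genes, mutant against wild type, with 200 changed genes in each of 10 runs, 77.2% of genes given a log2 change of 1 and 95.5% of genes given one of 2 were recovered, and 5.27% of calls were false. The simulated noise was independent between genes, with no shift shared by a whole library. The recovered shares are averages over genes of unlike spread. These rates therefore check the code and need not hold for the real libraries or for the 10 genes. The genes and 15 lists (145 codes, 141 in the table) were chosen with earlier results of these data known. Named genes were the 10 members, in each list the called genes (at most 4) or the 2 with the smallest p, and the nearest profiles; other named genes were picked after their values were seen. The other settings tried were a pseudocount of 0.1 or 0.5, no filter, a minimum mean of 5 FPKM, TPM, median-of-ratios and quantile scaling, no trend, robust moderation, and leaving out each library, or wild type replicates 1 and 2 together, with the genes tested kept the same. Sequences were read by AGI code from the RefSeq annotation and genome of TAIR10.1, whose coordinates were not joined to the authors' files, and aligned with mafft 7.526.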

Additional observations from a re-analysis of the deposited data

Results flagged for a closer look

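In a group of 4 libraries, a value was marked where its gap to the nearest other library exceeded the share of the group's range that Dixon's 95% critical value allows, which chance does in about 1 in 20 groups. Of 76 groups of 38 genes checked, 5 were marked. Wild type replicate 1 stood apart from the other wild-type libraries in LOX3 (22.6 FPKM) and in LOX4 (16.2 FPKM). Mutant replicate 8 stood apart from the other mutants in AOC1 (11.6 FPKM) and in AOC2 (5.48 FPKM). Mutant replicate 5 stood apart in ZAT12 (6.27 FPKM).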

How the results depend on the processing

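None of the 10 genes passed the threshold under any of the alternatives run, and the smallest adjusted p by limma was 0.157, for LOX6 without wild type replicate 3. Of 177 alternative fold changes 167 kept their direction and 10 turned sign, and the cause was not tested. All 10 turned in fits that left out libraries. A change of filter, no trend and robust moderation cannot alter the fold change of a gene that is fitted. Median-of-ratios scaling could hardly alter it, as its factors were alike in every library. Agreement under these settings was fixed in advance, so the 167 overstate how stable the directions were. Without wild type replicates 1 and 2 together, LOX3 had 0.0076, LOX4 0.27, AOS 0.39, AOC1 -0.35 and AOC3 0.21. When 1 library was left out, AOS ran from -0.62 to 0.044, AOC1 from -0.53 to 0.46 and OPR3 from -0.13 to 0.21. LOX2, LOX6 and AOC4 kept a positive sign in every fit that could be made. So did AOC2, but it passed the filter only through its mutant level, so its sign is a description. With a minimum mean of 5 FPKM, LOX4, AOC1 and AOC2 were not fitted, so these had 17 alternatives in place of 18. Of 12 JAZ genes, 0 were called with no filter, TPM, quantile scaling, no trend or without wild type replicates 1 and 2, and 0 to 0 when 1 library was left out. Of the 20 green tissue markers 0 to 1 were then called higher. Of the 3 mutated genes 1 was called lower with no filter, 0 without wild type replicates 1 and 2, and 0 to 2 when 1 library was left out. Over all genes, 24 rose and 9 fell, against 7 and 5 with no filter, 14 and 5 with TPM, 15 and 7 with no trend, 0 and 0 without wild type replicates 1 and 2, and from 0 and 0 (without wild type replicate 2) to 79 and 25 (without wild type replicate 3) when 1 library was left out. No paired analysis was possible because the groups share no replicate number. FPKM without counts limits what can be said of AOC1, AOC2 and LOX4, whose low values carry an unknown counting error.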
